A study of Mus musculus with 5 samples.

Results

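The genes described here are 42 genes of S phase and mitosis, chosen by name as rows of a table of expression values in whole melanomas of mice. They were 42 of the 23284 genes in the table, and all 42 passed the filter on low values that left 12533 genes for testing. The tumors came from B16F1 cells, a melanoma line of C57BL/6 mice, or from B16F1-CXCL5 cells, which are B16F1 cells that overexpress the chemokine CXCL5. Both kinds of cells were injected intradermally into C57BL/6 J mice, at the flank, with no further treatment, and tumors were taken at a volume of 250 to 350 mm³. There were 3 libraries of B16F1 tumors and 2 libraries of B16F1-CXCL5 tumors. The labels do not state the age of the mice, whether every library had a mouse of its own, how CXCL5 was expressed, and whether the cells with CXCL5 grew from 1 clone. The p-values therefore measure the spread between these libraries, and an effect of CXCL5 and a property of a clone cannot be told apart. Both groups were collected at the same range of volume, so the values compare tumors of like size and not tumors after a like time of growth.

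A cell copies its DNA in S phase and separates the copies in mitosis, and many genes that serve these steps are transcribed mainly in cells that are cycling. E2F factors switch on the genes of DNA replication at the entry to S phase, and the transcription factors B-MYB and FOXM1 switch on the genes of mitosis later. Promoters of mitosis genes often hold CCAAT boxes and an element called the CHR. The summed RNA of such genes in a tumor is used as a measure of how much of the tissue is cycling. In a whole tumor, a smaller number of cycling cells and less RNA per cycling cell cannot be told apart.

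The promoters of the members held the letters of these elements more often than those of genes at large. Promoter sequence from RefSeq (GRCm38.p6), from 250 bases before to 50 bases after each gene's start, was matched for 34 of the 42 members. The letters searched, on both strands, were CCAAT for the CCAAT box, TTTGAA for the CHR, and TTCCCGC for an E2F-like word, which could also read TTGGCGC, or else TTGCCGC, or else TTCGCGC. The reverse complement of TTGGCGC can share bases with CCAAT, so a hit of one can overlap a hit of the other. A CHR stood in 14 of 19 promoters of mitosis members and in 1 of 13 promoters of S phase members, against 20.2% of the 27025 genes with a RefSeq promoter. All 14 of these mitosis promoters also held a CCAAT box, and 7.97% of all genes held both. An E2F-like word stood in 9 of 13 promoters of S phase members and in 3 of 19 of mitosis members, against 10.9% of all genes. These counts describe letters in the sequence and do not show that a factor was bound. One promoter of each class is shown, each from a member whose difference between the tumor groups had one of the smallest p-values. Capitals mark every hit of the letters searched. The Mcm5 promoter, chr8:75109259-75109558 on the plus strand, holds E2F-like words and CCAAT boxes and no CHR. The Kif23 promoter, chr9:61946750-61947049 on the minus strand, holds a CCAAT box and a CHR. The Mki67 promoter, chr7:135716330-135716629 on the minus strand, holds all of these elements.
Mcm5: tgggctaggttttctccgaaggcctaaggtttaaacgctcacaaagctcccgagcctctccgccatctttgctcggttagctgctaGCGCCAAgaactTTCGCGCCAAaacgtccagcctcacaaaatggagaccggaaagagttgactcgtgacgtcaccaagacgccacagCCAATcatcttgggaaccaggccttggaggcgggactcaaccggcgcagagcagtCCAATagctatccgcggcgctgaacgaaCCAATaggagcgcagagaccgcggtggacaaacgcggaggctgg
Kif23: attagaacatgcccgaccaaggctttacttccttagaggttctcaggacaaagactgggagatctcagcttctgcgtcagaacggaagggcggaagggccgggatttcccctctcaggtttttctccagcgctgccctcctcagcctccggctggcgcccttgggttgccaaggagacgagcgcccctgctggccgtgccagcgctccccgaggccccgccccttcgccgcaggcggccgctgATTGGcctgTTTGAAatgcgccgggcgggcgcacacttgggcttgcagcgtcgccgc
Mki67: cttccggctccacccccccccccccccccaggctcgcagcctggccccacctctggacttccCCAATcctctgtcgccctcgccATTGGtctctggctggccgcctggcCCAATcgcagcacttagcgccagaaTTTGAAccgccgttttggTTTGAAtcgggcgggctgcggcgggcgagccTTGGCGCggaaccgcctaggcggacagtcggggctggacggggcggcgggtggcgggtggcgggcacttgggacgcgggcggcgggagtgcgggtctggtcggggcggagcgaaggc

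The labels held for the engineered gene, and the tumors had the expression of melanoma. Cxcl5 had 1.86, 3.62 and 1.01 FPKM in B16F1 tumors and 83.7 and 85.4 FPKM in B16F1-CXCL5 tumors, with a log2 fold change of 4.84 and a limma adjusted p of 0.0163. All 10 melanocyte lineage markers were above 0 in every library, and their mean log2(FPKM + 1) lay between 8.92 and 9.42. That mean was lowest in B16F1 library 3, the library in which the keratinocyte markers (6.23 against 4.86 to 5.37 in the others) and the skeletal muscle markers (7.31 against 5.59 to 6.82) were highest. The neutrophil markers had a mean of 1.75, 1.76 and 2.35 in B16F1 tumors and of 4.78 and 4.96 in B16F1-CXCL5 tumors. From the size of the steps between low values, depth was estimated at 26200000 to 28400000 fragments per library.

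All members were expressed in all 5 libraries, most of them well above the typical gene. Their median level was 43.5 FPKM, against 12.04 FPKM over all tested genes. FPKM stands for fragments per kilobase of transcript in a library of fixed size, so levels can be compared between genes. The highest level was that of Pcna, the sliding clamp that holds DNA polymerases on their template, with a mean of 321 FPKM over the 5 libraries, and the lowest was that of Ccne2, the second of the E-type cyclins, with 4.20 FPKM. Rrm2, the small subunit of ribonucleotide reductase, followed Pcna with 173 FPKM, and then came Ube2c, Birc5 and Mcm2 with 141, 135 and 134.7 FPKM. In the order of mean levels, 37 of the 41 pairs of neighbours had library values that overlapped. The exceptions were the steps from Pcna to Rrm2, from Rrm2 to Ube2c, from Tyms to Mybl2 and from Cenpe to Ccne2. Ccne2 rested on an estimated 278 fragments in its lowest library, a counting error of 6.00%, and every other member on at least 705.

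**Figure D1:**
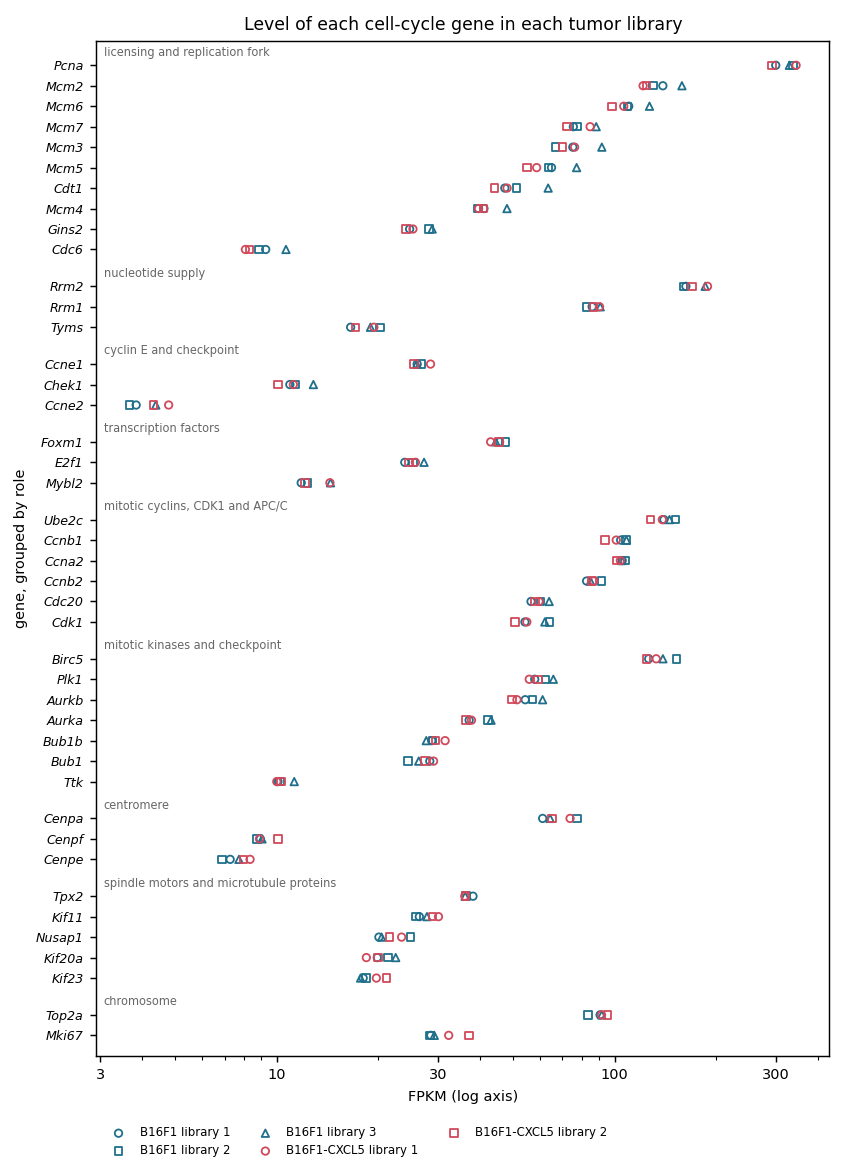
Level of each of the 42 genes in FPKM (horizontal log axis) in each of the 5 libraries, with the genes grouped by role (vertical axis); each point is 1 library, colour gives the tumor group and marker shape the library. The points of a gene lie close together, from 1.06-fold apart for Tpx2 to 1.44-fold apart for Cdt1.

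The question put to these values is whether tumors from cells with CXCL5 expressed the genes of cell division at another level than tumors of the same size without it. None of the 42 members passed limma at an adjusted p of 0.05, and the smallest adjusted p was 0.466, for Mki67. Over all tested genes 17 passed, or 0.136%. Of the members, 2 had an unadjusted p under 0.05, which is 4.76% of them against 8.97% of all tested genes. The median log2 fold change of the members, on the scale of log2(FPKM + 1) and positive where B16F1-CXCL5 tumors were higher, was -0.03, with 16 positive and 26 negative, and the median over all tested genes was -0.01 with 46.6% positive. The members' log2 fold changes ranged from -0.26 for Mcm5 to 0.26 for Mki67. No direction can be read from the median, since it was 0.02 with 23 members positive when libraries were scaled to the same sum of FPKM, a scaling that put the median of all tested genes at 0.03 and 59.0% of them above 0.

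The intervals bound how large a difference could be. In all 42 members the 95% interval of the log2 fold change, not adjusted for the number of genes, lay inside a 1.5-fold change in either direction. The lowest bound was -0.55, for Cdt1, and the highest was 0.47, for Mki67. The same held for 77.5% of all tested genes, and for 84.6% of the 9340 other tested genes whose mean level lay within the members' range. It held for 37 of the members without B16F1-CXCL5 library 2 and for 38 without B16F1-CXCL5 library 1. The spread within the groups was small as well, with a median SD of 0.09 on the log2 scale for the members and of 0.12 for all tested genes. It was 0.11 for the 9340 other tested genes within the members' range of level. For comparison, the log2 fold change of Csf3r, a receptor of neutrophils, was 3.60 and that of S100a8, an abundant neutrophil protein, was 5.46 in the same libraries (limma adjusted p = 0.00195 and 0.0403).

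**Figure D2:**
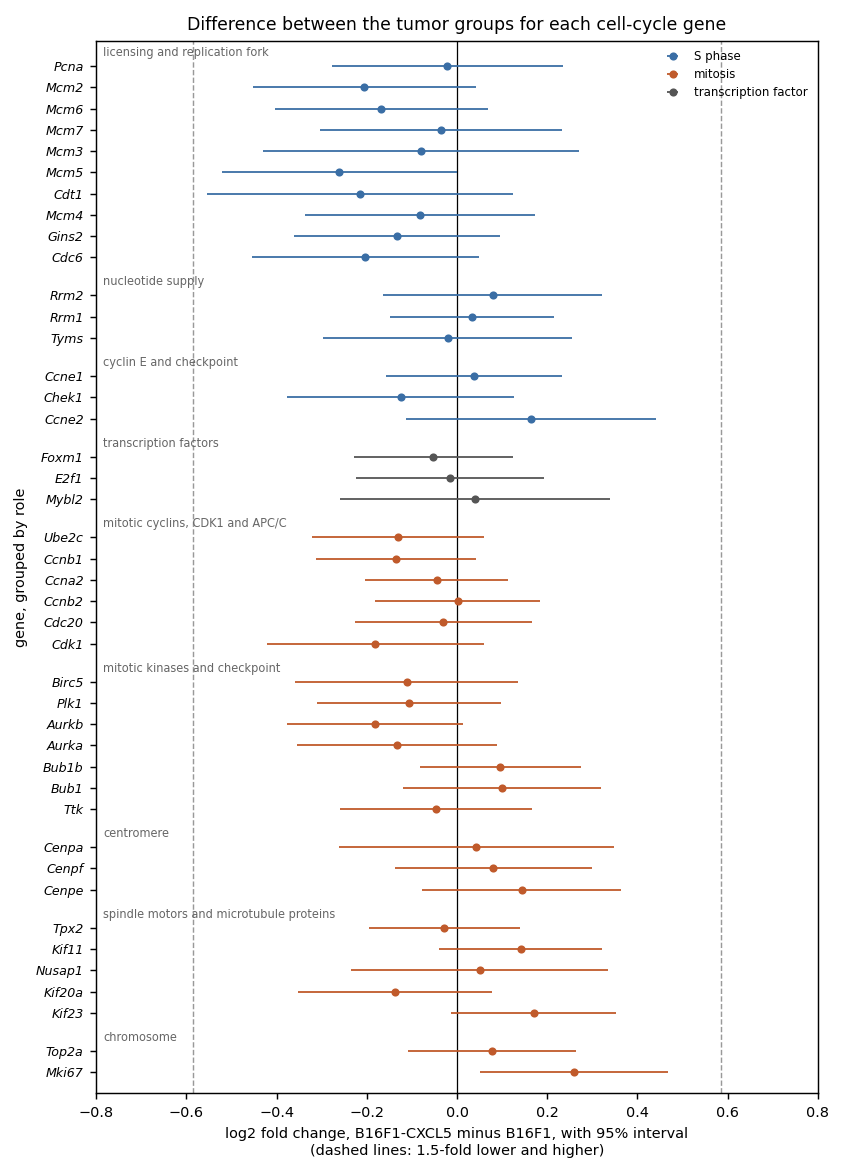
Log2 fold change of each of the 42 genes, B16F1-CXCL5 minus B16F1 (horizontal axis), with genes grouped by role (vertical axis); points are limma estimates from 3 and 2 libraries, bars are 95% intervals, colour gives the phase and dashed lines mark 1.5-fold. All bars lie between the dashed lines, and only those of Mki67 and Mcm5 leave out 0.

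All 10 genes of replication licensing and of the fork had a negative log2 fold change, a count that was 7 of 10 without B16F1 library 3. Over all tested genes 46.6% had a positive value, as had 42.6% of the other tested genes within the members' range of mean level. The median of the 10 genes was -0.15, and 0 passed over all genes with limma. An unadjusted p under 0.05 was found for 1 of them, or 10%, against 8.97% of all tested genes. The MCM2 to MCM7 proteins form the ring-shaped helicase that unwinds DNA, and CDC6 and CDT1 load it onto origins. Mcm5 had 65.1, 63.8 and 77.2 FPKM in B16F1 tumors and 58.8 and 55.1 FPKM in B16F1-CXCL5 tumors. The groups did not overlap, B16F1 library 3 stood above the rest, and the log2 fold change was -0.26 (SE 0.11, limma adjusted p = 0.555, exact two-sided permutation p = 0.1, the smallest that 3 against 2 libraries allow). Without B16F1 library 3 it was -0.17. The gene lies on chromosome 8 from 75109569 to 75128439 (GRCm38). Mcm2 had 139, 130.1 and 158 FPKM against 121 and 124 FPKM, a log2 fold change of -0.21 with an SE of 0.10 (limma adjusted p = 0.635). Mcm6 had 110.2, 109 and 127 FPKM against 106 and 98.4 FPKM, a log2 fold change of -0.17 with an SE of 0.10 (limma adjusted p = 0.689). Both had groups that did not overlap, again with B16F1 library 3 on top. The same order held for Cdc6, with 9.27, 8.86 and 10.6 FPKM against 8.07 and 8.28 FPKM (log2 fold change -0.20, SE 0.10, limma adjusted p = 0.649). Cdt1 had 47.3, 51.3 and 63.6 FPKM against 48.0 and 44.2 FPKM, so B16F1 library 1 fell between the B16F1-CXCL5 libraries (log2 fold change -0.22, SE 0.14).

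The rest of this role group differed by less. Mcm3, Mcm4 and Mcm7 had log2 fold changes of -0.08, -0.08 and -0.04, and each had its highest value in B16F1 library 3. Gins2, a subunit of the GINS complex that joins the helicase at the fork, had 24.7, 28.2 and 28.8 FPKM against 25.3 and 24.2 FPKM. Pcna had 300.1, 338 and 329 FPKM against 345 and 292 FPKM, and was highest and lowest in the 2 libraries of the same group.

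A single B16F1 library had the highest value of most of these genes. Of the 10 licensing and fork genes, 9 were highest in B16F1 library 3 and 6 were lowest in B16F1-CXCL5 library 2. The median deviation of these genes from their mean over all libraries was 0.21 in B16F1 library 3, against -0.01 in each of the other B16F1 libraries, and was -0.06 and -0.12 in those of B16F1-CXCL5 tumors. Without B16F1 library 3 their median log2 fold change was -0.09, with 7 of 10 negative, and with the libraries scaled to the same sum it was -0.10, with 8 of 10 negative. That library also had the highest keratinocyte and muscle markers and the lowest melanocyte markers given above. The mean of the 6 fibroblast markers was highest there as well, at 7.12, against 6.26 and 6.20 in the other B16F1 libraries and 6.95 and 6.99 in B16F1-CXCL5 tumors. The part of these markers in the result was not tested.

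The genes of nucleotide supply for DNA synthesis differed little. Rrm1 and Rrm2 encode the subunits of ribonucleotide reductase, and Tyms makes thymidylate. Rrm2 had 163, 160.2 and 186 FPKM in B16F1 tumors and 189 and 169 FPKM in B16F1-CXCL5 tumors, with overlapping groups and a log2 fold change of 0.08. Rrm1 and Tyms had log2 fold changes of 0.03 and -0.02. Tyms was at 0.03 with the same sum per library, at 0.02 with the same upper quartile, and at 0.0001, or near 0, with quantile normalization. Among the regulators of S phase entry, the cyclin E genes Ccne1 and Ccne2 had log2 fold changes of 0.04 and 0.16. Ccne2 had 3.83, 3.66 and 4.38 FPKM against 4.78 and 4.32 FPKM, with B16F1 library 3 between the B16F1-CXCL5 libraries. Chek1, the kinase that slows the cycle when replication stalls, had 10.9, 11.3 and 12.8 FPKM against 11.2 and 10.1 FPKM (log2 fold change -0.13, SE 0.10).

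The transcription factors that drive both programs were close to equal in the groups. E2f1 had 25.5 ± 1.69 FPKM (SD, n = 3) in B16F1 and 25.2 ± 0.754 FPKM (SD, n = 2) in B16F1-CXCL5 tumors, and its 95% interval ran from -0.22 to 0.19. Foxm1 had 45.9 ± 1.502 and 44.2 ± 1.74 FPKM, with an interval from -0.23 to 0.12. Mybl2, which encodes B-MYB, had 12.9 ± 1.38 and 13.2 ± 1.58 FPKM, with an interval from -0.26 to 0.34.

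The mitosis members were divided in direction, with 11 positive and 12 negative of 23 and a median log2 fold change of -0.03. Cyclins, CDK1 and the ubiquitin machinery that destroys cyclins had 5 of 6 negative values and a median of -0.09. The count depended on the scaling, since 3 of 6 were negative at the same sum per library, where Ccna2, Ccnb2 and Cdc20 were positive, and the same 3 were positive with quantile normalization. Ccnb1, the cyclin that brings CDK1 to mitosis, had 104, 108 and 108 FPKM in B16F1 tumors and 101 and 93.6 FPKM in B16F1-CXCL5 tumors. These groups did not overlap, with a log2 fold change of -0.14 and an SE of 0.07 (limma adjusted p = 0.667). Ube2c, the ubiquitin-conjugating enzyme of the anaphase-promoting complex, had 140.0, 152 and 145 FPKM against 138 and 128 FPKM, also without overlap (log2 fold change -0.13, SE 0.08). Cdk1 itself had 54.3, 64.1 and 62.2 FPKM against 54.98 and 50.8 FPKM, where B16F1 library 1 lay among the B16F1-CXCL5 libraries (log2 fold change -0.18, SE 0.10). Ccna2, the cyclin of S phase and early mitosis, was one of the steadiest members, with 105.4, 107.5 and 105.0 FPKM against 104.1 and 101.3 FPKM. Its groups did not overlap although they differed by a log2 fold change of only -0.05. Ccnb2 had 86.3 ± 4.52 and 86.3 ± 0.701 FPKM, and Cdc20, the activator of the anaphase-promoting complex, had 60.3 ± 3.72 and 59.0 ± 1.09 FPKM.

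The mitotic kinases and the checkpoint genes had 5 of 7 negative values and a median of -0.11, and no member of the group changed sign in any alternative. Aurkb, the kinase of the chromosomal passenger complex, had 54.4, 57.1 and 61.2 FPKM in B16F1 tumors and 51.4 and 49.7 FPKM in B16F1-CXCL5 tumors. The groups did not overlap, and the log2 fold change was -0.18 (SE 0.08, limma adjusted p = 0.594). Its partner in that complex, Birc5 (survivin), had overlapping groups, at 126, 153 and 139 FPKM against 133 and 124 FPKM. Bub1b, which encodes the checkpoint protein BUBR1, lay the other way, with 28.7, 28.9 and 27.7 FPKM against 31.5 and 29.5 FPKM and no overlap (log2 fold change 0.10, SE 0.07, limma adjusted p = 0.761). Bub1, a checkpoint kinase at the kinetochore, also had a log2 fold change of 0.10. Plk1 and Aurka, kinases of mitotic entry and of the spindle poles, had log2 fold changes of -0.11 and -0.13, and Ttk, the kinase MPS1 of the spindle checkpoint, had -0.05. All 3 had overlapping groups.

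Genes for the centromere, the spindle and the chromosome surface were small groups with positive medians. All 3 centromere members had positive values, as had 3 of the 5 spindle members and both Mki67 and Top2a, with medians of 0.08, 0.05 and 0.17. Without B16F1 library 1 or without B16F1-CXCL5 library 1, Cenpa and Nusap1 were negative and the spindle median was -0.0035 or -0.0061. Cenpf was just below 0 without B16F1-CXCL5 library 2, while Mki67 and Top2a were positive in all alternatives. Mki67, whose protein Ki-67 coats mitotic chromosomes and is the usual histological marker of cycling cells, had 28.6, 28.4 and 29.3 FPKM in B16F1 tumors and 32.3 and 37.1 FPKM in B16F1-CXCL5 tumors. The groups did not overlap, and the ratio of means was 1.21. The log2 fold change was 0.26 (SE 0.08, 95% interval 0.05 to 0.47, limma adjusted p = 0.466, exact two-sided permutation p = 0.1). It was 0.16 when the second B16F1-CXCL5 library was left out and 0.36 when the first was. Mki67 lies on chromosome 7 from 135689784 to 135716361 (GRCm38). Top2a, the topoisomerase that untangles the copied chromosomes, had 88.6 ± 4.41 and 93.4 ± 2.72 FPKM with overlapping groups.

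Among the motors, Kif23, a kinesin of the central spindle, had 18.02, 18.4 and 17.7 FPKM against 19.7 and 21.1 FPKM (log2 fold change 0.17, SE 0.07, limma adjusted p = 0.594). Kif11, the kinesin that pushes the spindle poles apart, had 26.4, 25.8 and 27.8 FPKM against 30.1 and 28.9 FPKM (log2 fold change 0.14, SE 0.07, limma adjusted p = 0.658). In both genes every B16F1-CXCL5 library lay above every B16F1 library. Kif20a, another kinesin of cytokinesis, had 21.2 ± 1.33 and 19.2 ± 1.09 FPKM and a log2 fold change of -0.14, so the motors themselves pointed in different directions. Nusap1 and Tpx2, proteins that organise spindle microtubules, had log2 fold changes of 0.05 and -0.03. Cenpe, a kinesin of the kinetochore, had 7.27, 6.87 and 7.72 FPKM against 8.33 and 7.97 FPKM (log2 fold change 0.14, SE 0.09, limma adjusted p = 0.714) without overlap. Cenpf, a large kinetochore protein, and Cenpa, the histone H3 variant of centromeres, had log2 fold changes of 0.08 and 0.04 with overlapping groups.

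Counted over all 42 members, the groups did not overlap in 13. Of these 8 were lower in B16F1-CXCL5 tumors, or 19.0% of the members against 15.6% of all tested genes, and 5 were higher, or 11.9% against 10.8%. Both shares are near those of the whole table.

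**Figure D3:**
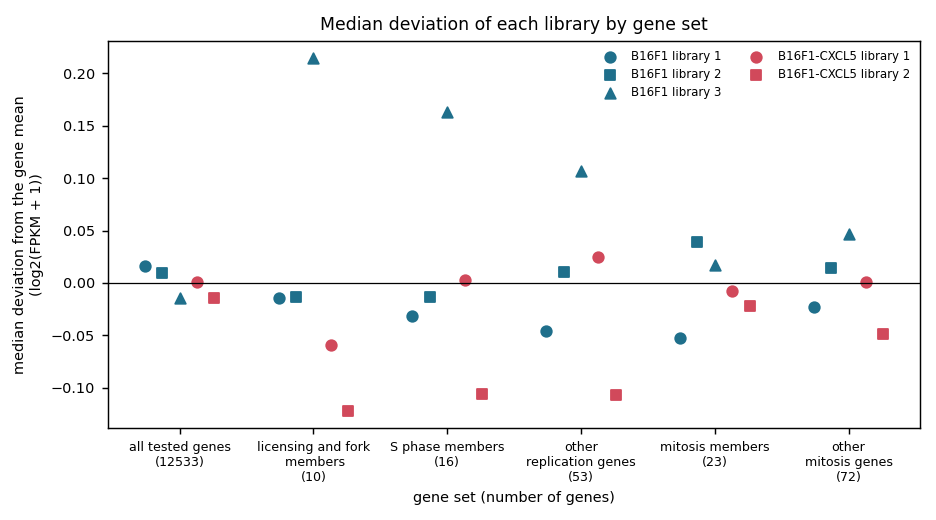
Median over the genes of a set of log2(FPKM + 1) minus the gene's mean over the 5 libraries (vertical axis), by gene set (horizontal axis); each point is 1 library. B16F1 library 3 stands at 0.16 for the S phase members and at 0.02 for the mitosis members, and B16F1-CXCL5 library 2 at -0.11 and -0.02.

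The libraries ranked in a clearer order for the S phase members than for the mitosis members. Of the 16 S phase members 11 were highest in B16F1 library 3 and 8 were lowest in B16F1-CXCL5 library 2, while over all tested genes 21.2% were highest and 26.9% lowest in those libraries. Of the 23 mitosis members 7 were highest in B16F1 library 3 and 7 in B16F1 library 2, and 7 were lowest in B16F1-CXCL5 library 2. The S phase median was 0.00 in B16F1-CXCL5 library 1 and -0.11 in B16F1-CXCL5 library 2, so the first of these lay above B16F1 libraries 1 and 2, at -0.03 and -0.01.

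Replication genes outside the members, measured in the same 5 libraries, had a like order of libraries. Of 53 other replication genes, such as those of the origin recognition complex and the replicative polymerases, all were tested, 38 had a negative log2 fold change, 0 passed over all genes with limma, and the median was -0.08. An unadjusted p under 0.05 was found for 5, or 9.43% against 8.97% of all tested genes. These 5 were all lower, and over all tested genes 448 of the 1124 were higher. Of the 53 genes, 29, or 54.7%, were highest in B16F1 library 3 and 30 were lowest in B16F1-CXCL5 library 2. The smallest unadjusted p belonged to Rpa1, the large subunit of the protein that coats single-stranded DNA, with 92.3, 85.7 and 95.8 FPKM in B16F1 tumors and 70.2 and 67.0 FPKM in B16F1-CXCL5 tumors. Its groups lay clearly apart, with a log2 fold change of -0.41 and an SE of 0.08, and it did not pass (limma adjusted p = 0.284). Cdc25a, a phosphatase that activates CDKs, had 17.4, 19.1 and 18.3 FPKM against 15.1 and 15.9 FPKM, and Pold2, a subunit of DNA polymerase delta, had 45.7, 52.3 and 57.0 FPKM against 43.3 and 38.8 FPKM. Both had a limma adjusted p of 0.502.

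Other mitosis genes were near balance in sign, with 33 positive and 39 negative of 72 and a median of -0.02, and 0 passed over all genes with limma. An unadjusted p under 0.05 was found for 8, or 11.1% against 8.97% of all tested genes. All 8 were lower, whereas 448 of the 1124 such genes among all tested genes were higher. The genes share the same libraries, so the 8 are not independent. The median of the 72 genes was 0.03 at the same sum per library and 0.01 without B16F1-CXCL5 library 2. The groups did not overlap in 17 on the lower side, or 23.6%, and in 5 on the higher side, or 6.94%. Over all tested genes these shares were 15.6% and 10.8%. Pttg1, which encodes securin, the inhibitor of sister chromatid separation, had 42.7, 43.1 and 43.3 FPKM against 36.5 and 32.8 FPKM (log2 fold change -0.31, SE 0.08, limma adjusted p = 0.404). Ccnf, cyclin F, had 18.5, 20.4 and 21.0 FPKM against 15.6 and 15.8 FPKM (log2 fold change -0.33, SE 0.08, limma adjusted p = 0.406). Fam64a, a mitotic gene also known as Pimreg, had 41.8, 46.7 and 44.6 FPKM against 35.0 and 33.4 FPKM (log2 fold change -0.36, SE 0.08, limma adjusted p = 0.332). In these genes the libraries of each group lay closer to one another than to the other group. The genes were named for having the smallest p-values of their list, a choice that favours this pattern, so the pattern is not a separate result. The differences did not survive adjustment over all genes.

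The list of G1 genes and their regulators included the largest positive values of any cell-cycle list here, though 0 passed limma over all genes. Of 32 genes for G1 cyclins, CDK inhibitors, pocket proteins and related factors, 30 were tested, 16 positive and 14 negative, with a median of 0.02, and 4 had an unadjusted p under 0.05, or 13.3% against 8.97% of all tested genes. Btg2, an antiproliferative gene induced by p53 and by stress, had 2.93, 4.76 and 3.12 FPKM against 10.8 and 6.09 FPKM (log2 fold change 1.02, SE 0.27, limma adjusted p = 0.419). Ccng2, cyclin G2, which is high in resting cells, had 19.8, 14.2 and 13.9 FPKM against 25.9 and 27.4 FPKM (log2 fold change 0.72, SE 0.16, limma adjusted p = 0.362). Btg1, a relative of Btg2, had 11.6, 11.5 and 12.1 FPKM against 16.9 and 14.7 FPKM (log2 fold change 0.40, SE 0.09, limma adjusted p = 0.362). All 3 had groups that did not overlap. The fourth, E2f5, an E2F factor that partners with pocket proteins, lay lower, with 16.04, 16.06 and 13.4 FPKM against 10.4 and 12.4 FPKM and no overlap (log2 fold change -0.38, SE 0.12, limma adjusted p = 0.463), and it is named outside the rule because it completes the count. BTG genes are also expressed in leukocytes, neutrophil markers differed between the groups as given above, and their part in these values was not tested. The CDK inhibitors that were tested are also named outside the rule. Cdkn1a (p21) and Cdkn1b (p27) had log2 fold changes of 0.26 and 0.25 with overlapping groups. Cdkn1c and Cdkn2d had 0.13 and 0.12, and Cdkn2c had -0.18. Of these only Cdkn2d had groups that did not overlap.

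GC content, a transcript property that the choice of genes did not use, went along with the members' differences, and transcript length did so less clearly. Across the 42 members, the log2 fold change and the GC content of the longest coding transcript (GENCODE M21) had a Pearson r of -0.48 and a Spearman rho of -0.47, and Pearson r lay between -0.50 and -0.43 when any single library was left out. These genes share the same libraries and are not independent. Over the 10952 tested genes with a coding transcript, the Pearson r was -0.03. In the 11 members with a GC content of up to 45% the median log2 fold change was 0.08 and 8 were positive, and in the 7 members over 55% it was -0.11 and 1 was positive. Over all tested genes the medians in those ranges were 0.00 and -0.01. For length the Pearson r was 0.31 on a log2 scale of length, and 0.09 without B16F1-CXCL5 library 2. The Spearman rho was 0.18, near the 0.15 over all tested genes with a coding transcript. The 7 members with transcripts over 4500 nt, Mki67 among them, had a median of 0.08, against 0.02 for the 2890 tested genes of such length.

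**Figure D4:**
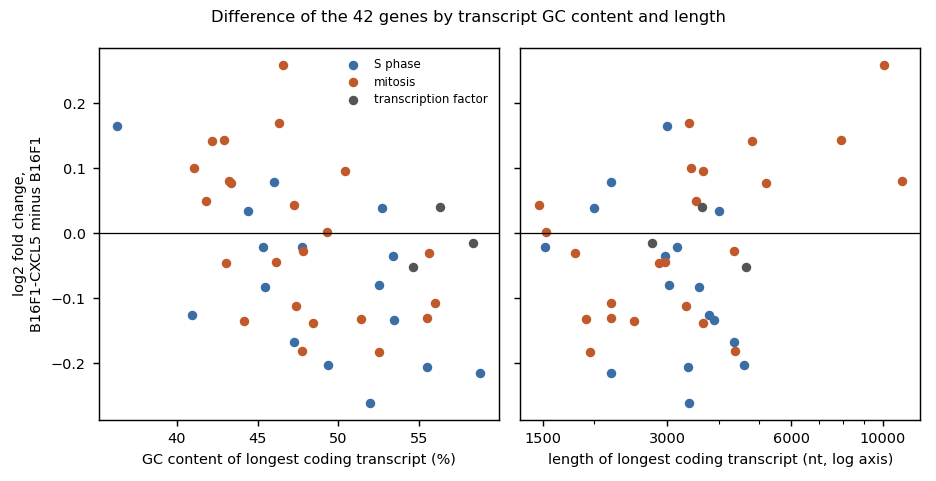
Log2 fold change of the 42 genes, B16F1-CXCL5 minus B16F1 (vertical axis), against GC content in percent (left) and length in nt on a log axis (right) of the longest coding transcript; each point is 1 gene, coloured by phase. The points fall from left to right in the GC panel, with a median of 0.08 at up to 45% GC and of -0.11 over 55%.

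The promoter classes with only an E2F-like word or only a CHR largely followed the phases, and their medians differed in the same direction as those of the phases. Of the 10 members with an E2F-like word and no CHR, 8 were negative, and their median log2 fold change was -0.13. Of the 13 with a CHR and no E2F-like word, 6 were negative, and their median was 0.00. The E2F-like class had a median deviation of 0.19 in the third B16F1 library and of -0.14 in the second B16F1-CXCL5 library. It holds Cdc6, Cdt1, Mcm3, Mcm5, Mcm6 and Mcm7, already counted among the licensing genes, so it is not a separate result. Rrm1 and Rrm2, of the same class, were positive. The promoters of Mcm5 and Kif23 shown above are examples of the E2F-like and the CHR class. The 9 members with neither element had a median of 0.04, with 5 positive and 4 negative. The 2 members with both also had a median of 0.04, with 1 positive and 1 negative.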

How the data were processed

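The authors deposited FPKM values for 23284 genes in 5 libraries of poly(A) RNA, made with a stranded kit, per the labels' protocols. Cufflinks 2.2.1, TopHat2 2.0.10, FastQC 0.10.1, Bowtie 1.0.0 and SAMtools 0.1.1.9 were used with build GRCm38 (mm10), per the submitters' processing notes. The sources used here name no annotation, strand setting or scaling of libraries. Cufflinks shares the fragments of near-identical copies by a model, so genes with processed pseudogenes are uncertain.

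Groups came from the titles. Log2(FPKM + 1) was tested with limma 3.58.1 (R 4.3.3) with an intensity trend, over the 12533 genes that reached 1 FPKM in at least 2 libraries, with Benjamini-Hochberg adjustment and a threshold of 0.05. The fit was tested on simulated data. Single genes also had an exact two-sided permutation test, whose smallest p is 0.1. Members and lists were chosen with earlier results of these data known, so medians and counts over them have no test. Genes were described in full if among the 12 smallest p-values or without overlap, and from each other list the 3 smallest p-values were named. Depth was estimated from 3059 genes with a single transcript of 800 to 6000 nt, assuming fragments of 200 nt. The libraries shared at most 0.12% of bit-identical values. There were 15 alternatives: pseudocounts, filters, scalings, library weights, no trend, replicate numbers as a block, and each library left out. The filters and the trend cannot change the log2 fold change of a member. The block gives members the same log2 fold changes as leaving out B16F1 library 3.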

Additional observations from a re-analysis of the deposited data

How the results depend on the processing

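No member passed limma's threshold in any of the 15 alternatives, and the lowest member adjusted p in them was 0.373, for Mki67 with library weights. The count of members with a positive log2 fold change was 16, and 11 to 23 in the alternatives, with at most 7 members on the other side of 0. The median of the members, -0.03, was 0.015 at the same sum per library. It was -0.07 without B16F1 library 1, -0.003 without B16F1 library 3, and -0.06 and -0.02 when the first or the second B16F1-CXCL5 library was left out. The median of the licensing and fork genes stayed negative in all alternatives, from -0.20 to -0.09. Over all genes, 16 were called higher and 1 lower. The calls were 29 higher and 2 lower with library weights, 6 higher with a mean FPKM of at least 3, 7 higher with a pseudocount of 0.1 and 38 higher without the intensity trend. Leaving out each library gave 0 to 31 higher and 2 to 4 lower, with 0 higher without B16F1-CXCL5 library 2 and 31 without B16F1 library 3. The cause was not tested. With replicate numbers as a block, 42 genes were called higher and 4 lower, 0 of them members. In the block B16F1 library 3 has no partner, and the correlation of deviations between same-numbered libraries was -0.03 and -0.02. The deviations of the 2 B16F1-CXCL5 libraries from their mean mirror each other, so these values are not separate checks. Whether the numbers mark a pairing cannot be told from them. Differences several times the members' median SE of 0.09 on the log2 scale did not pass, as in Mki67 (0.26) and, outside the members, Rpa1 (-0.41).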
